A study of Mus musculus with 8 samples.

Results

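The genes described here encode 31 subunits of potassium channels and of the proteins that bind them, measured in the hippocampus of Dclk3 knockout (KO) and wild-type (WT) mice. They were listed by name, in a list drawn up with earlier results of these data known, and all 31 were found among the 31417 genes of the count table and passed its filter on low counts. Poly(A) RNA from a single hippocampus was sequenced for each of 8 libraries, 4 from KO mice and 4 from WT mice, all from animals aged 12 months and with no treatment named. The product of Dclk3 is a protein kinase of the doublecortin-like family found in brain. Neither the allele and the part of the gene removed nor the strain is stated by the labels, which also leave out whether each of the 4 libraries per genotype is from another animal. Every p-value therefore measures the spread between these libraries, part of which may be technical.

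Potassium channels let potassium ions leave the neuron and so return the membrane toward rest. Voltage-gated (Kv) channels open when the membrane depolarises and set the shape and the rate of action potentials. KCNQ channels carry a slow current that dampens repetitive firing, and calcium-activated channels follow calcium entry to form the afterpotentials that space out spikes. Inward rectifiers of the GIRK family open when G protein-coupled receptors are bound, and leak channels hold the resting potential. Kv beta subunits and KChIP proteins have no pore: they bind Kv channels inside the cell and alter their traffic and their inactivation.

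The 31 genes were divided into 14 Kv pore subunits, 2 KCNQ subunits, 4 calcium-activated subunits, 3 inward rectifiers, 2 leak channels and 6 auxiliary subunits of Kv channels. Total counts per library ran from 29301974 to 36552757, and the lowest count of any subunit gene in any library was 392. Levels are given in counts per 1e6 counts (CPM) scaled by the TMM factors of edgeR, and a level is divided by the exon length of the gene in kilobases wherever genes are compared with each other. Dclk3 itself stood at 20.8 to 39.3 CPM in WT libraries and at 5.91 to 9.28 CPM in the KO libraries, with no overlap, a log2 fold change of -1.79 (SE 0.22). The edgeR adjusted p of Dclk3 was 0.234, above the threshold of 0.05, but 0.0121 without WT replicate 2, and that of DESeq2 was 3.93e-13. Markers of dentate granule cells, of CA1, of CA2 and CA3 and of interneurons were all measured in every library; the lowest of their levels was 1.40 CPM, for Tdo2.

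Per kilobase of exon, the 31 genes spanned an 82.55-fold range, and 27 of them lay above the median of all 16228 genes tested, which was 3.99 CPM per kilobase. Kcnab2, the Kv beta subunit with an aldo-keto reductase fold, stood far above the rest at 175.5 CPM per kilobase over the 8 libraries, higher than 99.2% of all genes tested. Kcnip2 (49.5 CPM per kilobase), a KChIP that binds Kv4 channels, was next, then the GIRK subunit Kcnj3 (34.7), the Kv4 pore subunit Kcnd2 (33.5), Kcnip3 (32.2) and the leak channel Kcnk1 (32.2), all in CPM per kilobase. The levels from Kcnj3 to Kcnk1 lay within the spread between libraries, as the plot of levels per length shows. At the low end were the Kv2 subunit Kcnb2 with 2.13, Kcnip1 with 2.45 and the small-conductance channel Kcnn3 with 2.81 CPM per kilobase. The length takes in the exons of every annotated transcript, whichever were expressed here, and the order depends on it. By CPM alone Kcnq3 ranked 2 and Kcnb2 28 among the 31 genes, and per kilobase they ranked 12 and 31.

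**Figure D1:**
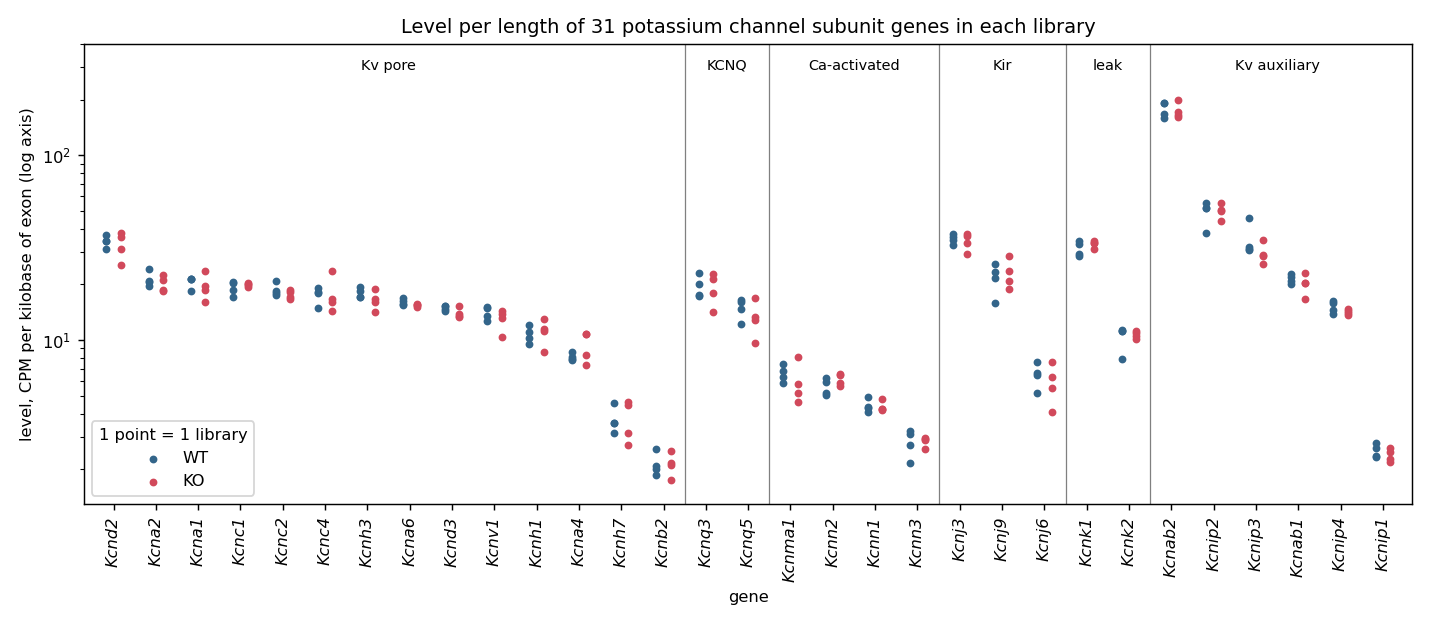
Level of each subunit gene in CPM per kilobase of exon (log axis) by gene, with 1 point for each of the 4 WT (blue) and 4 KO (red) libraries. Kcnab2 stands above every other gene, and for all 31 genes the WT and KO points overlap.

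Added up per kilobase, the auxiliary subunits made up 44.2% ± 0.831 (SD, n = 4) of the total of the 31 genes in WT and 43.9% ± 1.76 in KO. Kcnab2 alone made up 26.1% ± 1.21 in WT and 26.3% ± 1.53 in KO. The 14 Kv pore subunits together gave 32.35% ± 0.580 and 32.2% ± 1.01, the inward rectifiers 9.36% ± 0.631 and 9.56% ± 0.374, and the calcium-activated subunits 2.85% ± 0.0820 and 2.91% ± 0.131. KCNQ subunits gave 5.05% ± 0.411 in WT and 4.86% ± 0.805 in KO. Leak channels gave 6.16% ± 0.429 and 6.64% ± 0.353, with WT libraries from 5.53% to 6.50% and KO libraries from 6.34% to 7.11%. In each of the 6 subgroups the ranges of the genotypes overlapped.

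The genes lie on 15 chromosomes, and some share a neighbourhood (mm10). Kcna1 and Kcna6 are 61.95 kb apart on chromosome 6, and Kcna2 and Kcnc4 are 323 kb apart on chromosome 3. Kcnj9 lies 11.9 kb from Kcnj10, the astrocytic inward rectifier, on chromosome 1. The union of exons was longer than usual, with a median of 5945 bases against 4249 bases over all genes tested. Exons of Kcnab2 overlap another listed gene on the same strand, which a strand setting cannot tell apart. Those of 13 of the 31 genes overlap one on the opposite strand, so that part of their counts depends on the strand setting used in counting. The library kit keeps strand, but that setting is not given.

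RefSeq promoter windows (GRCm38.p6, from 250 bases before to 50 after a start) were found for 25 of the 31 genes, and the window richest in CG was taken for each gene. A window held a median of 20 CG dinucleotides, against 21 over 11963 genes tested with a window, and 52.0% of the subunit genes against 55.4% of those genes had at least 20. The TATAAA hexamer, searched on both strands, was in 1 of the 25 windows (4.0%, against 6.71% of the genes tested). Kcnab1 also had the hexamer, in a window with 1 CG that was not the one taken. The windows at the ends of the range are shown to make that spread visible, with each CG in capitals: Kcnc1, a fast-spiking Kv3 channel with 41 CG (plus strand, chr7:46396218-46396517), and Kcnj9, a GIRK subunit with 5 CG and the TATAAA match (minus strand, chr1:172329273-172329572).
Kcnc1: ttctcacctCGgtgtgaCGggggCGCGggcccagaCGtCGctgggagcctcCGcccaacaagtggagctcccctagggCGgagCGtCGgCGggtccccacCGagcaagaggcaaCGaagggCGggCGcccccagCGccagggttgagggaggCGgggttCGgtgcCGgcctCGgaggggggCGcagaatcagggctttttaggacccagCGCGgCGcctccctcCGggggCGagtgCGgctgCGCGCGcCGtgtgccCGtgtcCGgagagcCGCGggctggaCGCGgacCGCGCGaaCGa
Kcnj9: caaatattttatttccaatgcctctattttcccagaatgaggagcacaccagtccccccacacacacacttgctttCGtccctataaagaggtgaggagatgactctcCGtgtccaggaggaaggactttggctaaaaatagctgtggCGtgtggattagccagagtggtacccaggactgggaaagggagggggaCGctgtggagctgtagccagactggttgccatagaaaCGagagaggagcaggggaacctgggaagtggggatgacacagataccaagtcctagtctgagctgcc
The count of CG in these windows is a description of the reference genome; methylation and binding were not measured here.

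No subunit gene was called different between KO and WT, which does not show that the levels were equal. edgeR's quasi-likelihood test called 0 of the 31 at an adjusted p under 0.05, as it called 0 of 16228 genes tested (0.0%). At an unadjusted p under 0.05 there were also 0 of the 31, where 6.16% of all genes tested passed. DESeq2 called 0 of the 31 and 0.0308% of all genes with an adjusted p. limma-voom with sample quality weights called 0 of the 31 and 0.0% of all genes. At an unadjusted p under 0.05 limma-voom listed 1 of the 31, Kcnq5, a smaller share than its 1505 of 16228 genes tested. WT and KO libraries overlapped in every subunit gene, while they did not overlap in 3.80% of all genes tested. Over the 31 genes the edgeR adjusted p ran from 0.7965 to 0.998.

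The fold changes were small, and the intervals show how large a difference these libraries leave room for. The log2 fold change of KO over WT lay between -0.24 and 0.20, and 23 of 31 genes were within 0.1 of zero. All 31 of the 95% intervals, each taken alone and not adjusted for their number, lay within a 1.5-fold difference in either direction. The lowest bound was 0.679 of the WT level, for Kcnj6, and the highest was 1.38 times the WT level, for Kcna4. In bulk tissue, fewer cells of a type and less RNA per cell cannot be told apart, so a level here is that of the whole hippocampus.

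**Figure D2:**
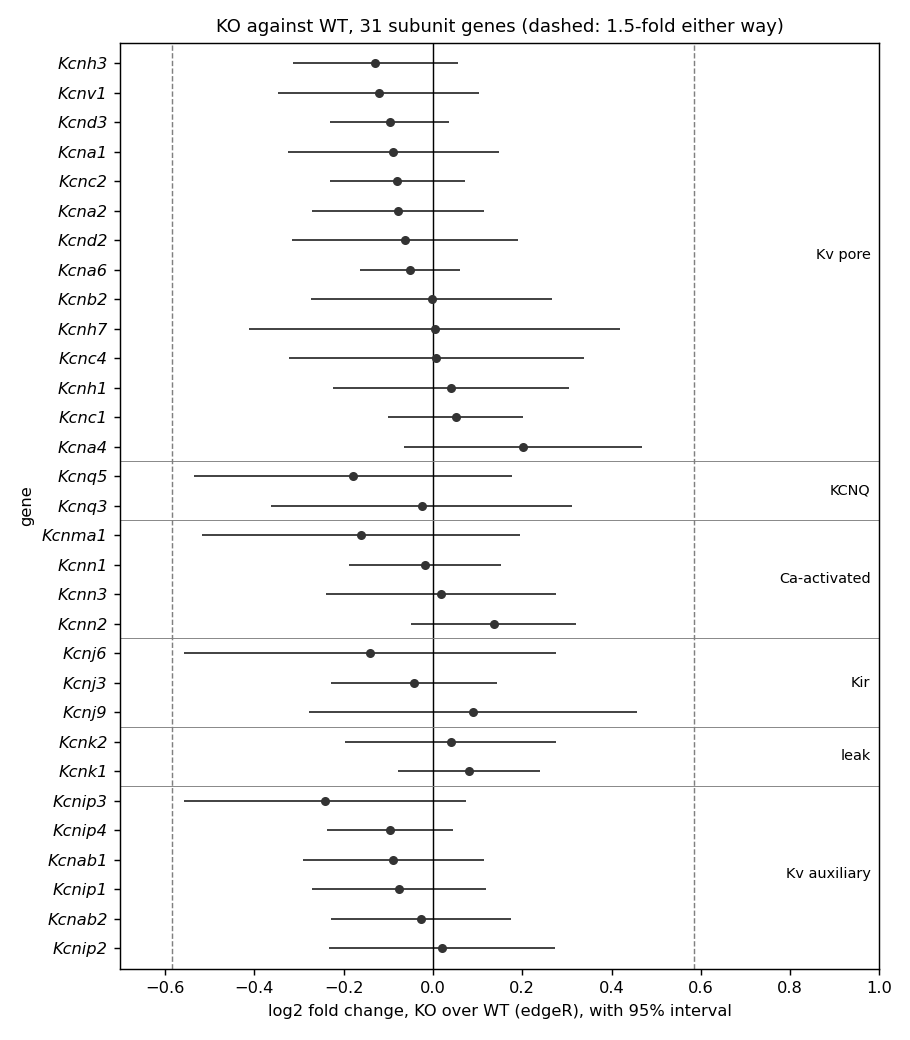
log2 fold change of KO over WT (x axis, edgeR) for each of the 31 genes (y axis, by subgroup) with its 95% interval; the dashed lines mark a 1.5-fold difference either way. Every interval crosses zero and none reaches a dashed line.

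Of the 31 genes, 20 had a fold change below zero, 64.5% against 49.9% of all genes tested, and the median log2 fold change was -0.04 against 0.00029 over all genes. By subgroup the median was -0.06 for the 14 Kv pore subunits (9 below zero), -0.10 for the 2 KCNQ subunits (both below), 0.00038 for the 4 calcium-activated subunits (2 below), -0.04 for the 3 inward rectifiers (2 below), 0.06 for the 2 leak channels (none below) and -0.08 for the 6 auxiliary subunits (5 below). These are counts of signs of values that did not pass a test. The median of all 31 moved with single libraries: it was -0.0020 without KO replicate 1, -0.014 without WT replicate 4, -0.070 without WT replicate 3, -0.079 without KO replicate 3 and -0.091 without KO replicate 4. The subgroup medians moved as well. Without KO replicate 1 and without KO replicate 4, in that order, they were -0.014 and -0.10 for the Kv pore subunits, 0.023 and -0.22 for the KCNQ pair, and 0.0050 and -0.092 for the inward rectifiers. The median of the auxiliary subunits came to -0.040 when KO replicate 1 was left out and to -0.044 when WT replicate 4 was, and that of the leak channels was 0.032 without WT replicate 2 and 0.092 without WT replicate 1. For the calcium-activated subunits it lay on either side of zero, from -0.056 without WT replicate 2 to 0.064 without WT replicate 1.

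Below, values of the libraries stand in the order of replicates 1 to 4, and ± gives the SD of the 4 libraries of a genotype. Among the Kv pore subunits, Kcna4 had the lowest p. This Shaker-type channel, which inactivates rapidly and is carried on axons, had 37.8, 41.4, 38.2 and 39.0 CPM in WT replicates 1 to 4 and 35.2, 40.3, 52.4 and 52.1 CPM in KO replicates 1 to 4. The WT libraries were close together, and the KO libraries fell into a pair within or just below the WT range and a pair above it. The log2 fold change was 0.20 with SE 0.12 and adjusted p = 0.797 by edgeR.

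Kcnd3, a Kv4 subunit that carries rapidly inactivating current in dendrites, had 138, 146.5, 141 and 147 CPM in the WT libraries and 129, 132, 128 and 147 CPM in the KO libraries. KO replicates 1 to 3 lay below the lowest WT library and KO replicate 4 lay inside the WT range. Its log2 fold change was -0.10 with SE 0.06 and adjusted p = 0.797 by edgeR. The related Kcnd2 was the most abundant Kv pore subunit per length, with 177.5, 177, 161 and 190.2 CPM in the WT libraries and 132, 161, 196 and 186 CPM in the KO libraries. KO replicate 1 was the lowest of all libraries for Kcnd2 and KO replicate 3 the highest (log2 fold change -0.06 with SE 0.11, adjusted p = 0.932 by edgeR).

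Kcnh3, an ether-a-go-go-like channel of the forebrain, had 111, 98.9, 98.2 and 106 CPM in the WT libraries and 108, 96.2, 92.1 and 82.0 CPM in the KO libraries. KO replicates 2, 3 and 4 lay below every WT library and KO replicate 1 above the WT median. The log2 fold change of Kcnh3 was -0.13 with SE 0.08 and adjusted p = 0.799 by edgeR. Kcnv1, a silent subunit that forms channels only together with other Kv subunits, had 58.2, 61.6, 69.55 and 68.7 CPM in the WT libraries and 47.7, 63.3, 60.2 and 66.1 CPM in the KO libraries. Apart from KO replicate 1 its KO libraries lay within the WT range (log2 fold change -0.12 with SE 0.10, adjusted p = 0.833 by edgeR).

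The remaining Kv pore subunits had log2 fold changes from -0.09 for Kcna1 to 0.05 for Kcnc1. Kcna1 and Kcna2, the axonal Shaker channels that flank the nodes of myelinated fibres, stood at 98.8 ± 7.13 and 254 ± 23.5 CPM in the WT libraries and at 92.9 ± 14.9 and 240.4 ± 23.1 CPM in the KO libraries. The Kv3 channels of fast-spiking interneurons, Kcnc1 and Kcnc2, stood at 182 ± 15.8 and 133 ± 10.4 CPM in the WT libraries and at 188 ± 4.39 and 126 ± 6.65 CPM in the KO libraries. Kcna6 was among the steadiest subunits, at 95.1 ± 3.72 CPM in the WT libraries and 91.8 ± 1.84 CPM in the KO libraries, and Kcnh7, at 56.3 ± 9.11 and 56.5 ± 14.4 CPM, one of the least steady. Kcnc4, Kcnb2 and Kcnh1 had log2 fold changes of 0.0079, -0.0025 and 0.04.

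Both KCNQ subunits form channels of the M-current, the slow current that dampens repetitive firing. Kcnq3 had 295.5, 256, 253 and 339.9 CPM in the WT libraries and 209, 263, 316 and 336 CPM in the KO libraries. Its KO range contained most of the WT range, with KO replicate 1 lowest (log2 fold change -0.03 with SE 0.15, adjusted p = 0.981 by edgeR). Kcnq5 had 123.5, 93.6, 113 and 127 CPM in the WT libraries and 74.0, 102, 98.5 and 129.5 CPM in the KO libraries. Here too KO replicate 1 was the lowest library. KO replicate 4 was the highest for Kcnq5, whereas WT replicate 4 was the highest for Kcnq3. The log2 fold change of Kcnq5 was -0.18 (SE 0.16, 95% interval -0.53 to 0.18, edgeR adjusted p = 0.843). Leaving out KO replicate 4 gave -0.32 for Kcnq5, and leaving out KO replicate 1 gave -0.051.

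Of the calcium-activated channels, Kcnma1 encodes the pore of the large-conductance BK channel. It had 107, 115, 99.2 and 125.5 CPM in the WT libraries and 77.9, 87.9, 97.6 and 136.5 CPM in the KO libraries. KO replicates 1 to 3 were below the WT range and KO replicate 4 was above it, so that the KO group was the wider by SD (25.6 against 11.3 CPM). The log2 fold change was -0.16 (SE 0.16, 95% interval -0.52 to 0.20, edgeR adjusted p = 0.862). Leaving out KO replicate 4 gave -0.35 for Kcnma1, and leaving out KO replicate 1 gave -0.055.

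The small-conductance SK channels varied less than Kcnma1 in the KO libraries, with coefficients of variation of 6.41% to 7.51% against 25.6%, but not in the WT libraries, with 7.59% to 17.3% against 10.1%. Kcnn2, the SK subunit best known from hippocampal pyramidal cells, had 46.3, 37.5, 38.4 and 44.0 CPM in the WT libraries and 41.95, 48.7, 48.5 and 43.6 CPM in the KO libraries. KO replicates 2 and 3 lay above the WT range, which held the other KO libraries (log2 fold change 0.14 with SE 0.08, adjusted p = 0.797 by edgeR). Kcnn1 and Kcnn3 had 20.2 ± 1.54 and 29.2 ± 5.05 CPM in the WT libraries and 19.99 ± 1.32 and 29.55 ± 1.89 CPM in the KO libraries.

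**Figure D3:**
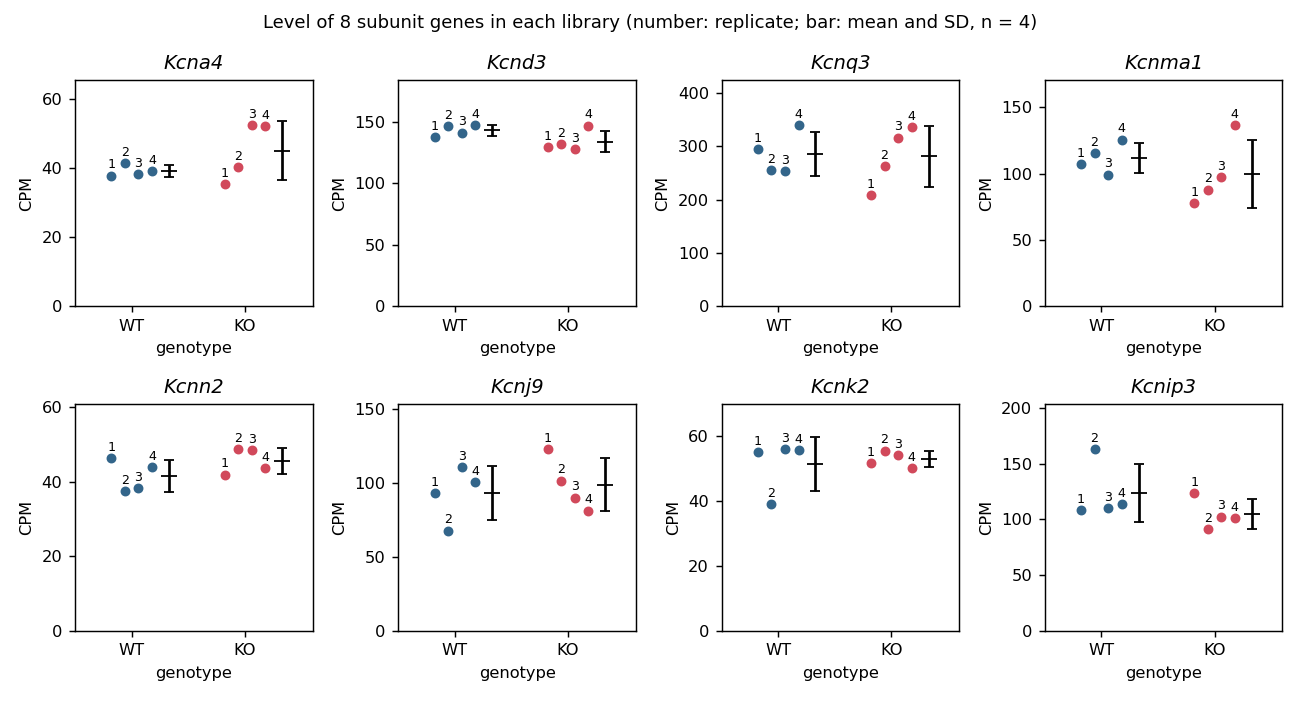
CPM (y axis, from 0) of 8 subunit genes by genotype (x axis), with 1 numbered point per library and the mean and SD of each group of 4. The WT and KO points overlap in each panel; WT replicate 2 stands apart for Kcnip3 at 163 CPM and for Kcnk2 at 39.1 CPM.

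The inward rectifiers are subunits of GIRK channels, through which GABA-B, adenosine and other receptors inhibit pyramidal cells. Kcnj3, the most abundant of the 3 per length, had 170.4, 188.5, 181 and 195 CPM in the WT libraries and 152, 174.5, 191 and 196 CPM in the KO libraries (log2 fold change -0.04 with SE 0.08, adjusted p = 0.939 by edgeR). KO replicate 1 lay below every WT library and the other KO libraries within or just above the WT range. Kcnj6 had 49.2, 58.2, 39.5 and 50.7 CPM in the WT libraries and 31.05, 41.8, 48.2 and 58.2 CPM in the KO libraries. Its lowest library was KO replicate 1, and its log2 fold change was -0.14 with the widest SE of the 31 genes, 0.18 (edgeR adjusted p = 0.898). Kcnj9 ran the other way: 93.2, 67.65, 110.5 and 100.2 CPM in WT against 122.5, 101, 90 and 81.2 CPM in the KO libraries, with KO replicate 1 the highest library. Its log2 fold change was 0.09 with SE 0.16 and adjusted p = 0.932 by edgeR.

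The leak channels showed no such low KO library. Kcnk1, a weakly conducting member of the tandem-pore family, had 74.1, 76.9, 65.0 and 63.5 CPM in the WT libraries and 69.5, 76.4, 74.9 and 75.0 CPM in the KO libraries. All 4 KO libraries lay inside the WT range (log2 fold change 0.08 with SE 0.07, adjusted p = 0.843 by edgeR). Kcnk2, a channel opened by stretch, heat and lipids, had 55.15, 39.1, 55.9 and 55.55 CPM in the WT libraries and 51.8, 55.5, 54.1 and 50.2 CPM in the KO libraries. Apart from WT replicate 2 every library lay between 50.2 and 55.9 CPM (log2 fold change 0.04 with SE 0.11, adjusted p = 0.9545 by edgeR).

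Among the auxiliary subunits, Kcnip3 had the lowest p of all 31 genes (edgeR adjusted p = 0.7965). Its product, also known as calsenilin or DREAM, binds Kv4 channels and, in the nucleus, DNA. It had 109, 163, 110.1 and 114 CPM in the WT libraries and 123, 91.55, 102 and 101 CPM in the KO libraries, a log2 fold change of -0.24 (SE 0.14). WT replicate 2 stood far above the rest, and without it the log2 fold change was -0.08. KO replicates 2 to 4 lay below the WT range and KO replicate 1 within it.

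Kcnip4, another KChIP, had 57.5, 50.1, 52.6 and 59.3 CPM in the WT libraries and 49.7, 50.65, 51.9 and 53.1 CPM in the KO libraries. KO replicate 1 lay just below the WT range and the other KO libraries in its lower part (log2 fold change -0.10 with SE 0.06, adjusted p = 0.803 by edgeR). Kcnab1, a Kv beta subunit that confers rapid inactivation on Shaker channels, had 189, 173, 178 and 195 CPM in the WT libraries and 143, 176, 197 and 176 CPM in the KO libraries. KO replicate 1 lay below the WT range and KO replicate 3 just above it (log2 fold change -0.09 with SE 0.09, adjusted p = 0.871 by edgeR).

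Kcnab2, the most abundant gene of the 31, had 1073, 931, 884 and 1063 CPM in the WT libraries and 921, 900.3, 1107 and 951 CPM in the KO libraries. The means were 988 ± 94.4 and 970 ± 93.6 CPM, a log2 fold change of -0.03 with SE 0.09 and adjusted p = 0.966 by edgeR. Kcnip2 and Kcnip1, a KChIP of interneurons, had 171 ± 26.6 and 15.6 ± 1.29 CPM in the WT libraries and 173 ± 15.4 and 14.8 ± 1.21 CPM in the KO libraries.

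Differences between single libraries were larger than those between genotypes. KO replicate 1 held the lowest level of the 8 libraries for 16 of the 31 genes, where 22.3% of all genes tested had their lowest level there. Against the other 3 KO libraries alone it was lowest for 19 of the 31 and highest for 7, among them Kcnc4 and Kcnj9; over all genes tested it was lowest for 31.1%. WT replicate 4 held the highest level for 9 of the 31 genes, against 10.98% of all genes tested. The mean of log2 CPM over the 31 genes, centred on the 8 libraries, was -0.14 in KO replicate 1 and between -0.05 and 0.12 in the others, and that of the KCNQ pair was -0.47 in KO replicate 1 and between -0.15 and 0.27 in the others. The coefficient of variation of the 31 genes had a median of 9.51% in WT and 11.4% in KO, and was larger in KO for 18 of 31 genes (55.7% of all genes tested). Without KO replicate 1 it was larger in KO for 12. That library was mostly the lowest or highest of the KO group, so a smaller KO spread is built into its omission. The share over all genes was not taken for that omission.

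**Figure D4:**
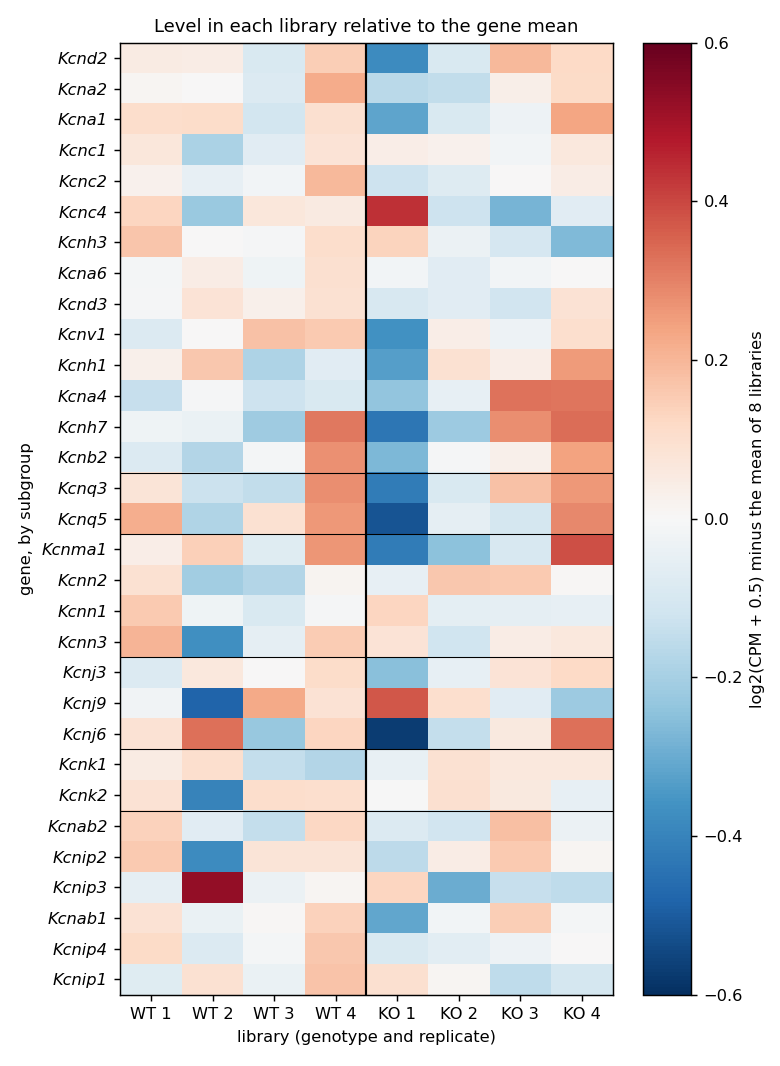
Level of each subunit gene (rows, by subgroup) in each library (columns), as log2(CPM + 0.5) minus the mean of the 8 libraries; blue is lower and red higher. The column of KO replicate 1 is blue for most Kv, KCNQ and GIRK genes and red for Kcnc4 and Kcnj9, and WT replicate 2 is dark red for Kcnip3 and blue for Kcnip2, Kcnk2, Kcnn3 and Kcnj9.

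Markers of hippocampal cell types also differed between libraries. The centred mean of 9 CA2 and CA3 markers was -0.35 in KO replicate 1 and between -0.06 and 0.16 in the other libraries, and that of 7 CA1 markers was -0.20 in KO replicate 1 and KO replicate 4 and from -0.05 to 0.22 in the others. All 7 CA1 markers had a fold change below zero, with a summed CPM of 1009 to 1191 in WT and 877 to 1125 in KO. The summed CPM of the CA2 and CA3 markers ran from 653 to 729 in WT and from 514 to 721 in KO, and 8 of the 9 had a fold change below zero. In WT replicate 2, where Kcnip3 was highest and Kcnk2, Kcnip2 and Kcnn3 lowest, the centred mean of 11 dentate granule markers was -0.46, against -0.17 to 0.16 in the others. It stood apart by the mean only. The centred median was -0.15 in WT replicate 2 and lower, -0.23, in WT replicate 3, and the summed CPM was 596 and 588. The summed CPM of these markers ran from 588 to 701 in WT and from 716 to 787.5 in KO, without overlap. By sign 11 of 11 were higher in KO, where 49.9% of all genes tested were below zero. edgeR called 0 of the 11, and 3 of them had an unadjusted p under 0.05 (6.16% of all genes tested). In 2 of the 11 the WT and KO libraries did not overlap (3.80% of all genes tested). None of these markers was at 0 in any library.

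The 11 interneuron markers summed to 1081 to 1143 CPM in the WT libraries and to 989.6 to 1012 CPM in the KO libraries. These ranges did not overlap, and 8 of 11 were lower by sign. Pvalb, Vip and Dlx6os1 were higher by sign, and edgeR called 0 of the 11. At an unadjusted p under 0.05 by edgeR, Gad1 was lower and Vip higher (6.16% of all genes tested passed). The largest part of the sum was Gad1, with a mean of 431 CPM in WT and 376 CPM in KO. All 7 oligodendrocyte markers had a fold change above zero, with a summed CPM of 3487 to 4975 in WT and 4242 to 4792 in KO. Choroid plexus markers varied most, from 68.7 to 2165 CPM in the WT libraries and from 183 to 3390.0 CPM in the KO libraries. The part that these markers have in the levels of the subunit genes was not tested.

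**Figure D5:**
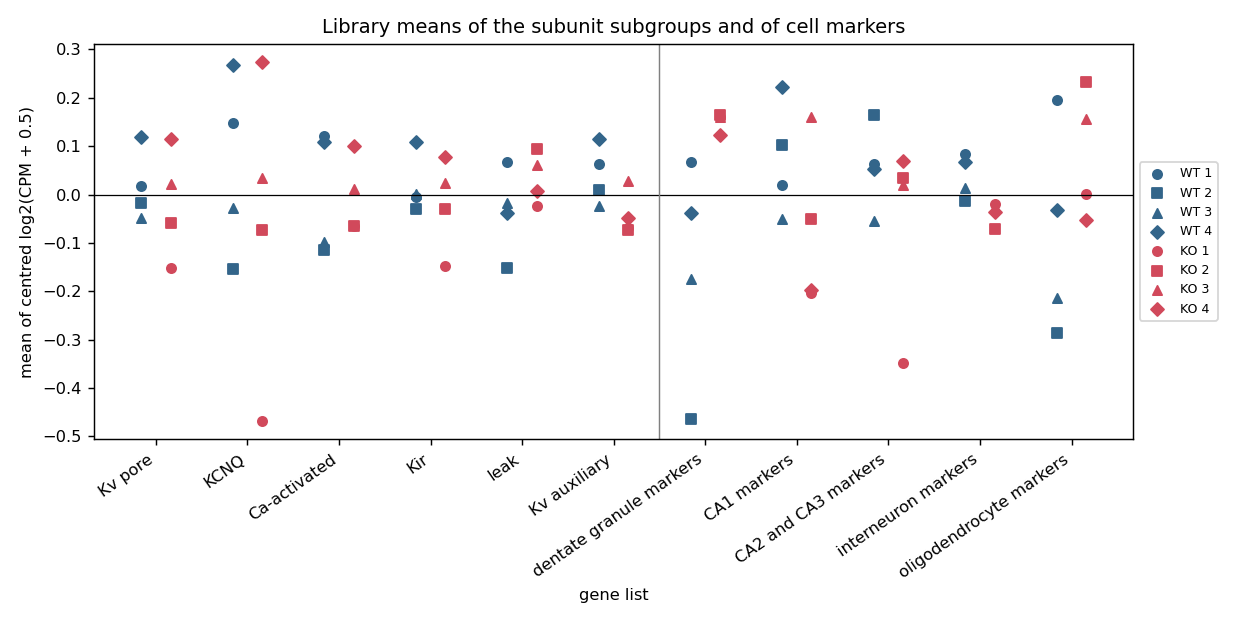
Mean over each list of log2(CPM + 0.5) centred on the 8 libraries (y axis), for the 6 subunit subgroups and for 5 lists of cell markers (x axis), with 1 symbol per library. KO replicate 1 is lowest for the KCNQ pair at -0.47 and for CA2 and CA3 markers at -0.35, and WT replicate 2 is lowest for dentate granule markers at -0.46.

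The rest of the family was read from a further list of 72 genes, which holds the other potassium channel subunits and partner proteins. Of these, 71 were in the table and 57 were tested; edgeR called 0, and 29 had a fold change above and 28 below zero, with a median of 0.0012. At an unadjusted p under 0.05 there was 1 gene of the 57, a smaller share than the 6.16% of all genes tested: Kcng1, a silent subunit that modifies Kv2 channels. It had 43.3, 55.0, 59.0 and 47.5 CPM in the WT libraries and 45.95, 37.4, 37.1 and 33.4 CPM in the KO libraries, with only KO replicate 1 inside the WT range. The log2 fold change of Kcng1 was -0.41 with SE 0.12 (adjusted p = 0.796 by edgeR and 0.331 by DESeq2), larger in size than that of any of the 31 genes.

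Abcc8, Kcne4 and Kcnt1 followed in order of p, each with an edgeR adjusted p of 0.7965 and overlapping groups. Abcc8, the sulfonylurea receptor of ATP-sensitive channels, had 28.8 ± 6.10 CPM in the WT libraries and 35.5 ± 4.97 CPM in the KO libraries. Kcne4, a single-pass regulatory subunit, had 1.15 ± 0.255 and 1.599 ± 0.547 CPM. Kcnt1, a sodium-activated channel, had 30.7, 31.3, 42.7 and 31.4 CPM in the WT libraries and 61.6, 41.4, 36.8 and 32.6 CPM in the KO libraries, where KO replicate 1 was the highest library.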

How the data were processed

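The authors deposited raw read counts per Ensembl gene for 8 libraries, whole numbers with no normalization. The submitters' processing notes name bcl2fastq 2.17.1.14 and mm10. No aligner or counting tool is named in the sources used, and the strand setting in counting is likewise not given; the kit keeps strand, per the labels' protocols. Symbols, positions and exon lengths came from GENCODE M21. The genotypes were compared in R 4.3.3 with edgeR 4.0.16 over all 16228 genes that passed filterByExpr (TMM, robust quasi-likelihood F test, Benjamini-Hochberg adjustment over all genes tested, threshold 0.05). SE is the size of the log2 fold change divided by the square root of F, and 95% intervals use the t distribution with edgeR's degrees of freedom. Alternatives were DESeq2 1.42.0, limma-voom (limma 3.58.1), other scalings and filters, the replicate number as a block, and each library left out. Libraries of a group differed by more than sampling noise (chi-square per degree of freedom from 8.85 to 40.9), so none was a copy of another in its group. That check does not look for outlying libraries, and all 8 were kept. The first principal component of log2 CPM over all genes tested held 29.1% of the variance. WT replicate 2 (26.9) and KO replicate 1 (-22.95) lay at its opposite ends, and the others from -11.2 to 13.1. No molecular identifiers are named, so PCR copies may be counted as reads.

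The members and lists were chosen with earlier results of these data known. Values in every library are given for the genes with the lowest p (4 Kv pore, 3 auxiliary and 2 of every other subgroup), for the most abundant gene per length of each subgroup, and for Dclk3 as the check of the labels (by range); of the other family genes, the 4 with the lowest p were named, with means for Abcc8 and Kcne4. On simulated counts for KO against WT, with 16075 genes tested, edgeR recovered 64.0% of genes changed 1.5-fold and 88.0% of those changed 2-fold. Changes were planted only in genes with a mean count above 50, and counts were drawn from the dispersions edgeR had fitted. In the real libraries edgeR called 0 of 16228 genes, and Dclk3, with a log2 fold change of -1.79, had an edgeR adjusted p of 0.234. The simulated shares are therefore not rates of detection for these libraries.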

Additional observations from a re-analysis of the deposited data

Results flagged for a closer look

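In 72 groups of 4 libraries examined (36 genes in each genotype), 6 had 1 library far from the other 3 by Dixon's test with a critical value of 0.829; chance sets apart about 1 group in 20. For Kcna1, WT replicate 3 had 88.1 CPM against 101.9 to 103 CPM in the other WT libraries. For Kcnn1, KO replicate 1 had 21.97 CPM against 19.3 to 19.4 CPM. WT replicate 2 was set apart for 3 genes: Kcnk2 with 39.1 CPM against 55.15 to 55.9 CPM, Kcnip3 with 163 CPM against 109 to 114 CPM, and Dclk3 with 39.3 CPM against 20.8 to 23.4 CPM. For Kcnt1, WT replicate 3 had 42.7 CPM against 30.7 to 31.4 CPM.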

How the results depend on the processing

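The count of subunit genes called stayed at 0 under all 16 alternatives and at an adjusted p threshold of 0.1. Over all genes, DESeq2 called 5, the replicate block called 1 (Dclk3) and leaving out each library called 0 to 1. At an unadjusted p under 0.05 limma-voom listed 1505 genes and 1 subunit gene (Kcnq5). Leaving out each library gave 556 (without WT replicate 4) to 1777 (without KO replicate 4) genes, with 642 without KO replicate 2, and 0 to 4 subunit genes: Kcnn2 without WT replicate 1, Kcnip4 without WT replicate 2, Kcna4, Kcnh3 and Kcnip3 without KO replicate 1, and Kcna1, Kcnd3, Kcnq5 and Kcnma1 without KO replicate 4. Over all genes, 719 of 16343 tested were listed without KO replicate 1. The counts were 1080 of 16438 without WT replicate 1 and 750 of 16447 without WT replicate 2. Without both KO replicate 1 and WT replicate 2, an alternative chosen after seeing the data, 6 of the 31 subunit genes were listed, beside 778 of 16219 genes tested.

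The sign of the log2 fold change held under all alternatives for 15 of the 31 genes and changed for 16. Leaving out each library, it ran from -0.14 to 0.043 for Kcnd2, -0.12 to 0.097 for Kcnq3, -0.092 to 0.032 for Kcnj3, -0.29 to 0.0050 for Kcnj6, -0.033 to 0.19 for Kcnj9, -0.068 to 0.089 for Kcnk2 and -0.097 to 0.015 for Kcnab2. Among genes named with their values that kept their sign, it ran from 0.12 to 0.31 for Kcna4, -0.15 to -0.075 for Kcnd3, -0.20 to -0.068 for Kcnh3, -0.18 to -0.025 for Kcnv1, 0.093 to 0.19 for Kcnn2, 0.036 to 0.13 for Kcnk1, -0.16 to -0.0030 for Kcnab1 and -0.13 to -0.058 for Kcnip4. Without both libraries it was 0.044 for Kcnd2, 0.046 for Kcnq3, 0.044 for Kcnj3, 0.093 for Kcnj6, -0.15 for Kcnj9 and -0.056 for Kcnk2. The cause was not tested.

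Whether replicate numbers pair the libraries is not stated by the labels. Over all genes tested, deviations of same-numbered KO and WT libraries correlated at -0.281 to 0.179, which cannot decide it. The summed CPM of the choroid plexus markers went with the number. It was 188 in WT and 183 in KO for replicate 1, and 2165 and 3390 for replicate 2. For replicate 3 it was 875 and 1078, and for replicate 4 it was 68.7 and 236. A shared dissection or batch was not tested. With the replicate block 0 subunit genes were called, 22 lay below zero and their median log2 fold change was -0.048.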
